A study of Rattus norvegicus with 29 samples.

Results

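Cultured rat kidney cells exposed to acetaminophen for 24 h were compared directly with the same kind of cells exposed to gentamicin for 24 h. The comparison uses 6 of the 29 libraries in the series, the 3 titled APAP T2 and the 3 titled Gent T2, chosen by their labels alone. All are primary renal proximal tubule epithelial cells of the rat. Each of the 6 cultures received a single compound, and the labels put the collection at 24 h. Of the other libraries, the 3 untreated controls of 24 h, the 3 acetaminophen and 3 gentamicin libraries of 6 h, and the TCDD and trichloroethylene libraries of 24 h (3 each) were used as reference levels. The sources used here do not give doses, vehicles, or the strain, age and number of the animals. Whether the 3 replicates of a group are separate animals, separate cultures or repeat wells is not stated, so a p-value here weighs a difference against the spread among libraries, which may be technical.

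The proximal tubule reabsorbs most of what the glomerulus filters, including glucose, amino acids and small proteins, and it relies on mitochondrial metabolism for the energy this takes. Gentamicin is an aminoglycoside antibiotic that these cells take up by receptor-mediated endocytosis and store in lysosomes, and the proximal tubule is the site of its kidney toxicity. Acetaminophen is an analgesic whose reactive quinone imine metabolite binds glutathione and, once glutathione is spent, proteins. A direct comparison of the compounds asks which messenger RNAs tell the 2 exposures apart, whatever each did against untreated cells.

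The unit of measurement is the transcript. The files give an Ensembl transcript identifier, an estimated count and a TPM value (a level corrected for transcript length and library total) and no gene names. The reference table used here lists 47357 rat genes with an Ensembl identifier for 0 of them, so no transcript could be named, none could be assigned to a pathway, and the labelled cell type was not checked against marker genes. Individual transcripts are therefore shown through 4 identifiers, 2 for each direction. The 6 libraries held between 9316996 and 11156296 estimated counts. No library stood apart: the median absolute log2 difference per transcript ran from 0.162 to 0.272 between acetaminophen replicates, from 0.135 to 0.246 between gentamicin replicates, and from 0.749 to 0.811 between libraries of different compounds.

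After 24 h the 2 compounds left the cells with different messenger RNA populations. Of 15990 transcripts tested, 10709 differed between acetaminophen and gentamicin (67%; edgeR quasi-likelihood test, Benjamini-Hochberg adjusted p under 0.05). The directions were near balance: 5297 were higher with acetaminophen (33.1%) and 5412 were higher with gentamicin (33.8%). The median log2 difference, acetaminophen minus gentamicin, was 1.08 in the first set and -1.05 in the second, beside 0.02 over all tested transcripts. Over 2-fold differences numbered 2895 and 2833, and over 4-fold differences 947 and 1059. At the extreme the sets were less even, with 112 transcripts more than 16-fold higher with acetaminophen and 208 more than 16-fold higher with gentamicin.

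These differences were mostly larger than the replicate spread. For 10251 of the 10709 called transcripts, the 3 libraries of one compound lay wholly above the 3 of the other on the scaled count (69.2% of all tested transcripts did so). Among those different by more than 4-fold this held for 1976 of 2006. The calls and the 4-fold limit used these same libraries, so these counts describe the called transcripts and are no separate support. Small differences were also resolved: 2270 called transcripts differed by less than 1.5-fold, and in 1989 of them the groups did not overlap. When the test asked for a difference beyond 1.5-fold (edgeR glmTreat), 6582 transcripts passed (41.2%), 3240 higher with acetaminophen (20.3%) and 3342 higher with gentamicin (20.9%). At the other end, 2788 transcripts (17.4%) had a 95% interval of the difference lying wholly within 1.5-fold in either direction, and 763 of those passed the test as small differences. A further 3256 were neither called nor shown to be alike.

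The balance of directions rests on how the libraries are scaled. TMM scales libraries as if most transcripts were unchanged or the changes balanced, while 67% of tested transcripts were called here. A near balance therefore follows in part from the scaling. The TMM factors lay between 1.15 and 1.18 in the acetaminophen libraries and between 0.852 and 0.871 in the gentamicin libraries. In the controls they lay between 1.01 and 1.02. With TMM, 49.5% of the called transcripts were higher with acetaminophen. With library totals alone that share was 69.2% and the median of all tested transcripts moved to 0.45 on the log2 scale. On log2(TPM + 1), tested with limma, the share was 63.8% and the median 0.24. Directions below are relative to the TMM scale.

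The transcript ENSRNOT00000064772, of 3680 bases, had the largest log2 difference in favour of acetaminophen among transcripts with at least 10 counts in all 6 libraries and groups that did not overlap. Its level was 27.8, 25.6 and 34.6 TPM in the acetaminophen libraries and 1.44, 1.39 and 0.49 TPM in the gentamicin libraries. All 3 acetaminophen libraries stood far above the gentamicin ones, and replicate 3 was the highest of its group and the lowest of the other. The log2 difference was 4.43 ± 0.22 (SE; edgeR adjusted p = 6e-15), a 21.5-fold difference. Controls stood at 1.95 ± 0.46 TPM (SD, n = 3), near the gentamicin level. Against them the transcript rose with acetaminophen (log2 change 3.74 ± 0.206, adjusted p = 8e-14) and fell with gentamicin (log2 change -0.69 ± 0.251, adjusted p = 0.021). TCDD libraries held 2.81 ± 0.714 TPM and trichloroethylene libraries 5.46 ± 0.496 TPM at 24 h (n = 3 each), both below every acetaminophen library.

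ENSRNOT00000050156, of 1545 bases, is among the most abundant transcripts of these cells and had, within the same limits, the largest excess in mean TPM with acetaminophen. It stood at 15978, 13411 and 19854 TPM with acetaminophen and at 6327, 6019 and 5525 TPM with gentamicin. Every acetaminophen library was above every gentamicin library, while the acetaminophen range overlapped that of the controls, which held 14257 ± 1747 TPM (SD, n = 3). The log2 difference was 1.14 ± 0.114 (SE; edgeR adjusted p = 2.5e-09). Against control it fell with gentamicin (log2 change -1.11 ± 0.114, adjusted p = 6.8e-09), and with acetaminophen the log2 change was 0.04 ± 0.113 (adjusted p = 0.8). The TCDD libraries of 24 h were also low, at 8283 ± 2585 TPM, and the trichloroethylene libraries were at 15547 ± 676.6 TPM.

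On the gentamicin side, ENSRNOT00000049667, of 1926 bases, had the largest log2 difference within the same limits of 10 counts in all 6 libraries and no overlap. It stood at 202, 210 and 199 TPM with gentamicin and at 2.02, 2.79 and 1.97 TPM with acetaminophen. The gentamicin libraries were close to each other and the groups were far apart. The log2 difference was -6.78 ± 0.21 (SE; edgeR adjusted p = 1.3e-18), or 109.8-fold. Controls were at 2.01 ± 0.1 TPM (SD, n = 3), so the transcript rose with gentamicin (log2 change 6.79 ± 0.215, adjusted p = 3.6e-18), while its change with acetaminophen was 0.01 ± 0.304 (adjusted p = 0.99). TCDD libraries of 24 h held 267 ± 70.5 TPM, with individual values of 286, 188.5 and 325 TPM on either side of the gentamicin values, and trichloroethylene libraries held 3.35 ± 0.0572 TPM. Another identifier had the same length and the same estimated counts in every library, so its reads could not be told apart from these and each of the pair holds an equal part.

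Within those limits, the largest excess in mean TPM with gentamicin belonged to ENSRNOT00000031555, of 806 bases. The gentamicin libraries held 13237, 12761 and 11220 TPM and the acetaminophen libraries 284, 301 and 266 TPM. No library of one compound came near the other group. The log2 difference was -5.73 ± 0.195 (SE; edgeR adjusted p = 1e-17), or 53.2-fold. In controls the level was 213 ± 27.2 TPM (SD, n = 3). It rose with gentamicin (log2 change 6.03 ± 0.199, adjusted p = 1.2e-17), and with acetaminophen the change was 0.29 ± 0.165 (adjusted p = 0.13). TCDD libraries of 24 h stood at 2962.5 ± 713.5 TPM, between the control and gentamicin levels, and trichloroethylene libraries at 283 ± 23.8 TPM.

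**Figure D1:**
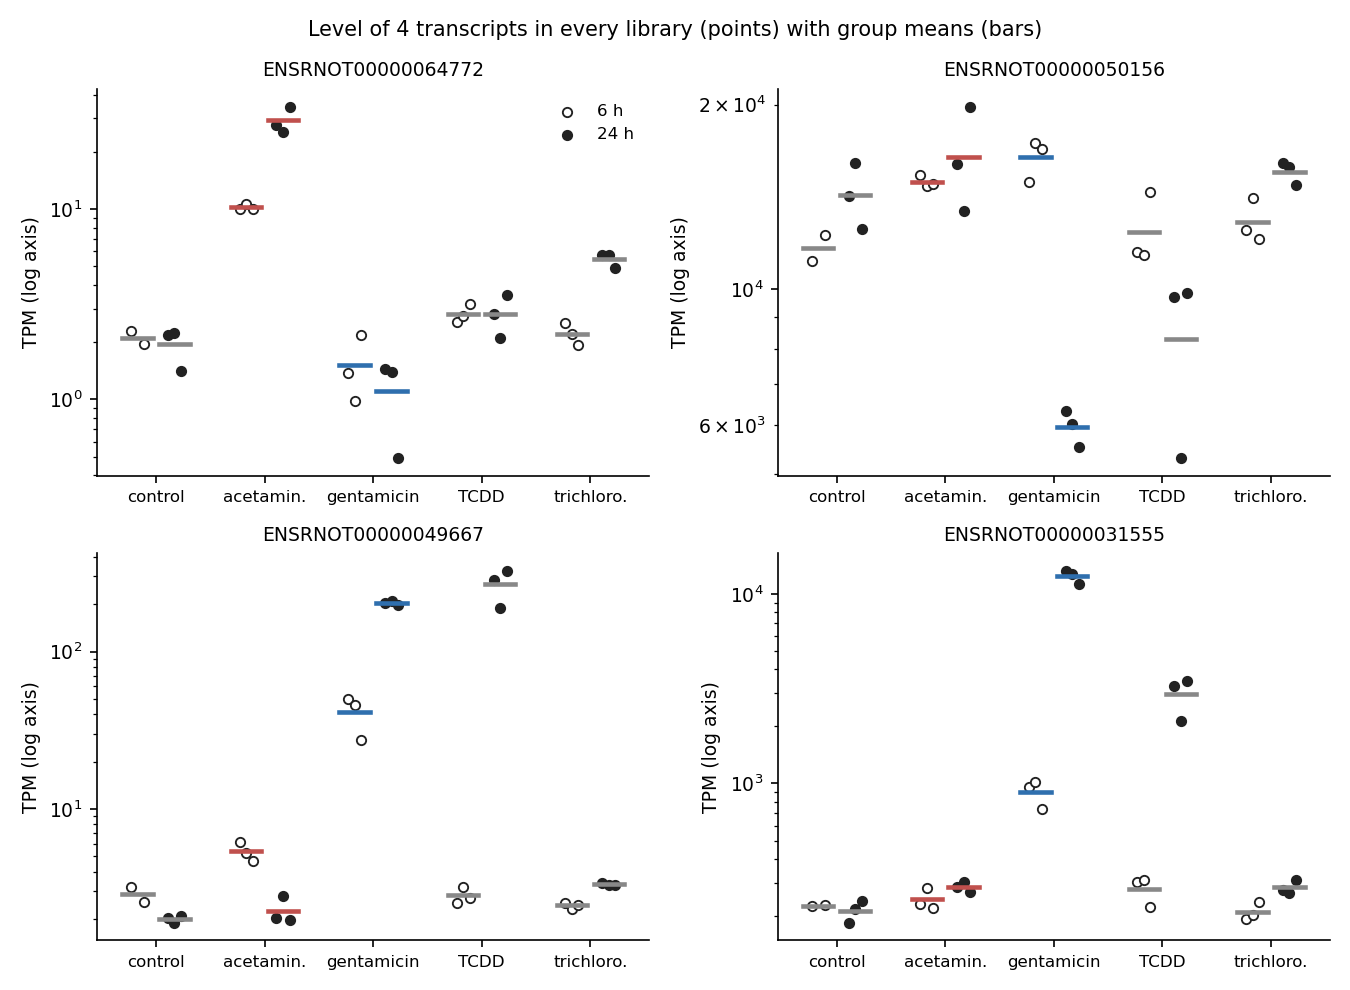
TPM (log axis, a separate scale in each panel) of 4 transcripts in every library of the 5 conditions; open points are 6 h libraries, filled points 24 h libraries and bars group means. ENSRNOT00000064772 is highest with acetaminophen at 24 h, ENSRNOT00000050156 is low with gentamicin at 24 h, and ENSRNOT00000049667 and ENSRNOT00000031555 are high with gentamicin and TCDD at 24 h.

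Size of fold and size of the change in abundance mostly picked out transcripts of different level. A large TPM difference needs a high level with either compound, so this follows in part from the ranking. TPM is corrected for transcript length, so length can enter that ranking too, which was not tested. The groups of 10 that follow were ranked within the same limits as the 4 identifiers: called, at least 10 counts in all 6 libraries, and groups that did not overlap; some called transcripts with fewer counts in a library had larger differences. The 10 with the largest log2 difference in favour of acetaminophen had log2 differences from 3.92 to 4.43 and a median control level of 1.6 TPM, and all 10 rose against control with acetaminophen. The 10 with the largest TPM excess with acetaminophen had a median control level of 6716 TPM and a median length of 682.5 bases, beside 2019 bases over all tested transcripts. None of these 10 rose against control with acetaminophen (6 fell), and all 10 fell with gentamicin, with a median log2 change of -2.46 against control. Together they held 6.92% of all TPM in controls, 6.06% with acetaminophen and 1.44% with gentamicin.

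The mirror sets on the gentamicin side were rises. Of the 10 with the largest log2 difference (from -6.78 to -5.47), 9 rose against control with gentamicin and 1 fell. With acetaminophen 4 of the 10 fell and 0 rose. In this group 2 identifiers shared their length and all estimated counts with another, so the 10 are not all separate measurements. The 10 with the largest TPM excess with gentamicin all rose against control with gentamicin, by a median log2 change of 3.15, and 5 of them also rose with acetaminophen. Their median length was 1016 bases. They held 0.817% of all TPM in controls, 1.4% with acetaminophen and 6.39% with gentamicin. Groups of 10 were ranked on the measured difference, and these counts describe them without a test.

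Abundance as a whole was redistributed between the libraries. The 5297 transcripts higher with acetaminophen held 34.4% ± 1.7 of all TPM in the acetaminophen libraries, 27.7% ± 1.38 in controls and 14.3% ± 0.467 in the gentamicin libraries (SD, n = 3 each). The 5412 higher with gentamicin held 29.7% ± 1.22, 39.2% ± 0.725 and 57.3% ± 1.31 in the same order. These sets were chosen on the comparison, so the gap between the compounds is no separate result. The control level lay between them for both sets, as is likely under such a choice for a group that did not enter it. The TCDD and trichloroethylene libraries of 24 h also lay between the compound means for both sets. Summed over all transcripts, called or not, the gain in mean TPM was 28.2% of all TPM on each side. Spread among replicates adds to this gain, and no value within a compound was set beside it. On the acetaminophen side 167 transcripts made up the first 50% of that gain and on the gentamicin side 111, and the 10 largest made up 16.6% and 17.7%.

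**Figure D2:**
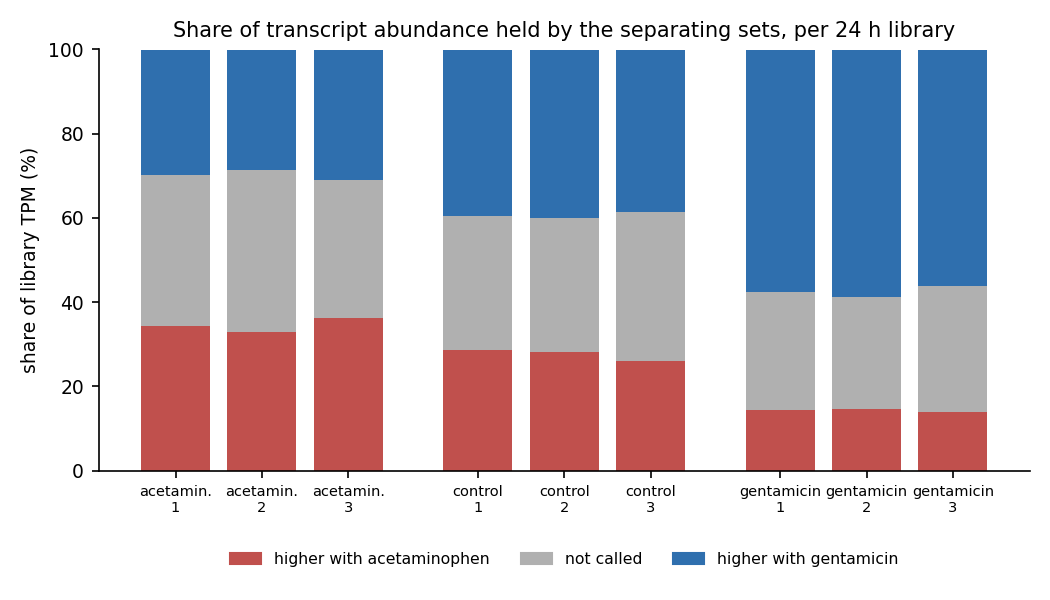
Share of all TPM (%, axis from 0 to 100) in each 24 h library of acetaminophen, control and gentamicin held by transcripts higher with acetaminophen (bottom), not called (middle) and higher with gentamicin (top). The top block covers 55.9% to 58.5% of the gentamicin libraries and 28.5% to 30.9% of the acetaminophen libraries, with the controls between.

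The share of the libraries taken by the most abundant transcripts was compared. The 10 highest of each library took 7.31% ± 0.353 of TPM with acetaminophen and 6.77% ± 0.16 with gentamicin (SD, n = 3 each; two-sided exact permutation test, p = 0.1, the smallest that 3 against 3 allows), beside 7.7% ± 0.827 in controls. For the 100 highest the shares were 29.5% ± 1.62 and 27% ± 1.43, the groups overlapped, and the exact permutation p was 0.2. Transcripts at 1 TPM or more numbered between 14271 and 14524 in the acetaminophen libraries and between 13797 and 14146 in the gentamicin libraries, which did not overlap (two-sided exact permutation test, p = 0.1). Controls held between 14018 and 14200 such transcripts.

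Transcripts of different control level separated the compounds in different directions. Below 1 TPM in 24 h controls, 1018 of 2163 transcripts differed (47.1%), and 55.9% of those were higher with acetaminophen. From 1 to 10 TPM, 2834 of 4582 differed (61.9%), and 61.9% of these were higher with acetaminophen. From 10 to 100 TPM, 5753 of 7668 differed (75%) and the share was 46.7%. Among the 1428 transcripts from 100 to 1000 TPM, 1023 differed (71.6%) and 24.4% of these were higher with acetaminophen: 773 were higher with gentamicin and 250 with acetaminophen, though with library totals the majority ran the other way (557 of 1037 higher with acetaminophen). Among the 149 above 1000 TPM, 81 differed and the split was 37 to 44.

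The class from 1 to 10 TPM had the highest share toward acetaminophen and the class from 100 to 1000 TPM the lowest under both scalings, while every share moved, and with library totals all 5 shares lay above 50%. With library totals in place of TMM, the share of called transcripts higher with acetaminophen was 66.1%, 76%, 68.9%, 53.7% and 71.2% from the lowest to the highest of these classes. The median log2 difference of the class from 100 to 1000 TPM was -0.37 with TMM and 0.07 with library totals, the lowest of the 5 classes under both. The median absolute log2 difference of called transcripts was 2.6 below 1 TPM, 1.39 from 1 to 10 TPM and 0.84 from 10 to 100 TPM. It was 0.8 from 100 to 1000 TPM and 1.02 above 1000 TPM. A transcript low in controls can pass the count filter through a group where it is higher. At few counts only a large difference is called, so these sizes depend in part on the filter and the call.

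**Figure D3:**
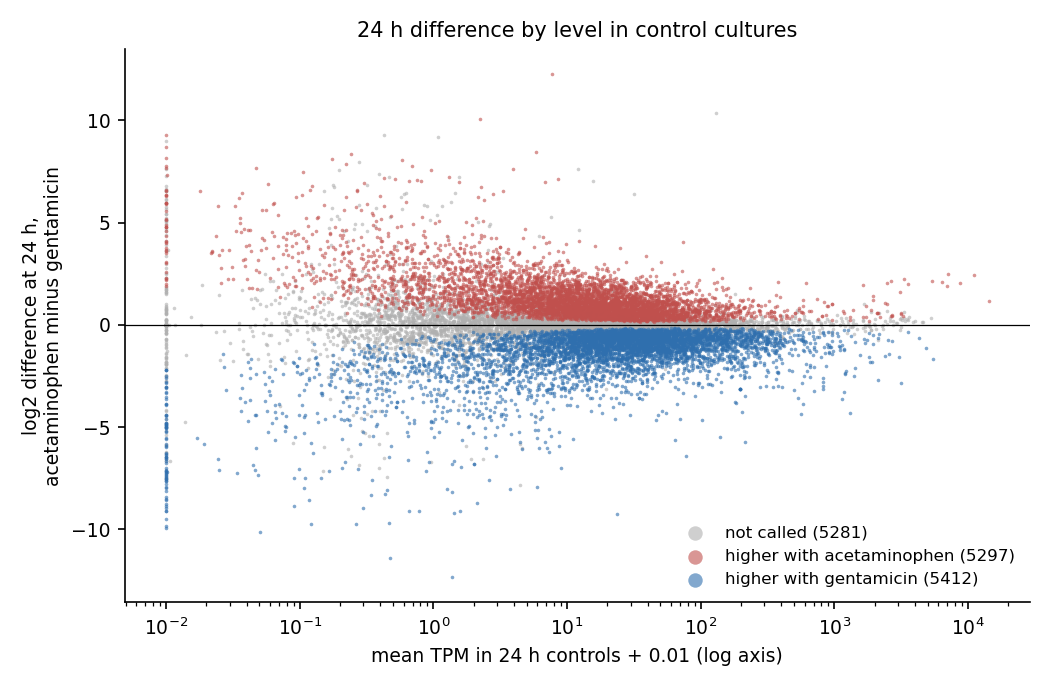
Log2 difference at 24 h (acetaminophen minus gentamicin) of each of the 15990 tested transcripts against its mean TPM in 24 h controls plus 0.01 (log axis). Red points are higher with acetaminophen (5297), blue points higher with gentamicin (5412) and grey points not called; with the TMM scale drawn here blue outnumbers red between 100 and 1000 TPM, and with library totals it does not.

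Transcript length set the sets apart little. The median length was 2066 bases for transcripts higher with acetaminophen, 2155 bases for those higher with gentamicin and 1807 bases for those not called. The share of called transcripts that were higher with acetaminophen went from 52.9% below 500 bases to 44.7% at 4000 bases or more. Fragment length, read as the bases between a transcript's length and its effective length, was 254 ± 21 bases in the acetaminophen libraries and 262 ± 2.65 in the gentamicin libraries (SD, n = 3 each; range 233 to 275 and 259 to 264.5; two-sided exact permutation test, p = 0.7). The groups overlapped, and with fragment length as a covariate 10959 transcripts were called.

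Some transcripts were found with one compound and not with the other. Of the 28420 transcripts, 51 had no count in any acetaminophen library and at least 10 in every gentamicin library. The opposite held for 27. Of the 51, 49 passed the count filter and all 49 were called. All 27 passed the filter and 23 were called, beside 67% of all tested transcripts. The 51 had a median of 4.22 TPM with gentamicin and reached 25.3 TPM, with 13 above 10 TPM. Setting each empty library at 3 counts, they were at least 13.2-fold higher in the median and at least 252-fold higher at the most. Of these, 26 had no count in the 3 controls either and 3 had at least 10 counts in each. The 27 found with acetaminophen had a median of 1.75 TPM and reached 34 TPM, with 3 above 10 TPM, and were at least 7.72-fold higher in the median and 188-fold at the most. Among them 7 had no count in controls and 4 had at least 10 counts in each control. Both sets were chosen on these counts, so the calls are no separate support, and no test is given for the sets. Where isoforms of a gene share reads, a count of 0 can reflect how reads were divided, which was not tested.

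Each compound was also set against the same 3 controls, which makes the 2 sets of values dependent, and they are given side by side. Transcripts higher with acetaminophen had a median log2 change from control of 0.54 with acetaminophen (quartiles 0.08 and 1.15) and of -0.55 with gentamicin (quartiles -1.08 and -0.06). Against control with acetaminophen, 3101 of the 5297 rose, 522 fell and 1674 did not pass (over all tested transcripts 30.3% rose and 29.2% fell). With gentamicin, 487 rose, 2969 fell and 1841 did not pass (29.1% and 30.5% over all).

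Transcripts higher with gentamicin showed the reverse. Their median log2 change from control was 0.54 with gentamicin (quartiles 0.02 and 1.27) and -0.47 with acetaminophen (quartiles -1.04 and 0.02). With gentamicin, 3227 of the 5412 rose, 689 fell and 1496 did not pass. With acetaminophen, 779 rose, 2976 fell and 1657 did not pass.

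Among the largest differences, the median change from control was greater in size with the compound that had the higher level. For the 947 transcripts more than 4-fold higher with acetaminophen, the median log2 change from control was 1.73 with acetaminophen and -1.04 with gentamicin. For the 1059 more than 4-fold higher with gentamicin, it was 2.01 with gentamicin and -0.94 with acetaminophen. Among the 947, 711 rose against control with acetaminophen and 488 fell with gentamicin. Among the 1059, 780 rose with gentamicin and 518 fell with acetaminophen. These sets were chosen with the same treated libraries, so the direction of the medians follows in part from the choice. Their sizes are also affected, because a transcript low in controls can pass the count filter through the compound where it is higher. Such a transcript can show a large rise from control and hardly any fall. How much of the gap between rises and falls comes from this was not tested.

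**Figure D4:**
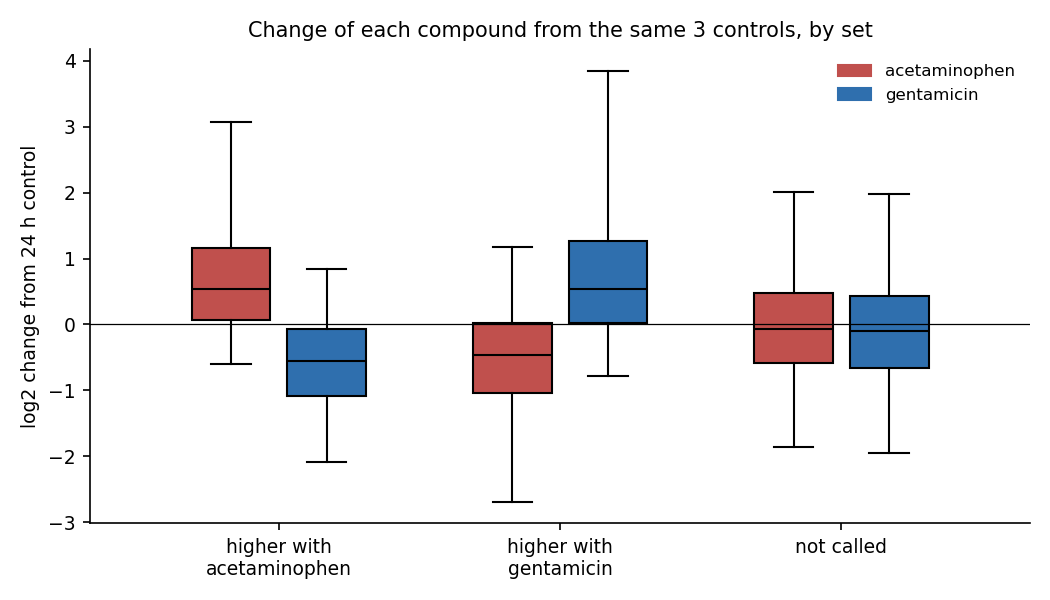
Log2 change from the 3 controls of 24 h with acetaminophen (red) and gentamicin (blue) for transcripts higher with acetaminophen, higher with gentamicin and not called. Boxes span the quartiles with the median as a line and whiskers the 5th to 95th percentile; medians are 0.54 and -0.55 in the first set and -0.47 and 0.54 in the second.

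The other treatments of 24 h placed the pair in a wider order. Among the 5 group means (acetaminophen, gentamicin, control, TCDD and trichloroethylene), acetaminophen was the highest for 2896 of the 5297 transcripts higher with acetaminophen (54.7%), and gentamicin was the lowest for 2915 (55%). Among the 5412 transcripts higher with gentamicin, gentamicin was the highest for 3104 (57.4%) and acetaminophen the lowest for 2706 (50%). For more than 4-fold differences acetaminophen was the highest in 753 of 947 (79.5%) and gentamicin in 773 of 1059 (73%). The TCDD mean lay nearer to acetaminophen than to gentamicin for 2482 of the 5297 and 2849 of the 5412, and the trichloroethylene mean for 2910 and 3158. These are orders of group means, given without a test. The sets were chosen with acetaminophen and gentamicin apart, which by itself places these groups more often at the ends of the order.

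The separation had begun by 6 h. Libraries of 6 h are separate from those of 24 h, and there acetaminophen and gentamicin differed in 8711 transcripts (54.5%). Of these, 5917 differed in the same direction at 24 h, which is 67.9% of the 6 h calls and 55.3% of the 24 h calls. Transcripts more than 4-fold apart at 24 h had the same sign at 6 h in 848 of 947 cases on the acetaminophen side and in 915 of 1059 on the gentamicin side. Over all tested transcripts 48.1% were positive at 6 h. Fewer were called at 6 h: 644 of the 947 higher with acetaminophen and 11 lower (26.1% and 28.3% over all). Of the 1059, 611 were called higher with gentamicin at 6 h and 27 lower. The log2 differences of 6 h and 24 h correlated at r = 0.501 over the 15990 transcripts; the transcripts share libraries and are no independent replicates.

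The difference itself changed with time for 7263 transcripts (45.4%; contrast of the 24 h and the 6 h difference, edgeR adjusted p under 0.05). Of the 10709 transcripts separated at 24 h, 5389 (50.3%) had a difference that changed since 6 h in the direction it took at 24 h; 964 of these had stood apart in the opposite direction at 6 h. Of the changes, 50.4% ran toward acetaminophen with TMM, 62% with upper-quartile factors, 78.5% with library totals and 77.5% on log2(TPM + 1), so that balance also follows the scaling. A group of 2513 transcripts did not pass at 6 h, passed at 24 h and had a difference that changed between the times. A further 1084 passed at 6 h and not at 24 h, again with a tested change.

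Among the 2513 transcripts that became separated later, the median change since 6 h was greater with gentamicin than with acetaminophen. For the 1237 of them higher with acetaminophen at 24 h, the median log2 change from 6 h to 24 h was -0.75 with gentamicin and 0.34 with acetaminophen. With gentamicin 881 fell between the times (26.5% of all tested transcripts fell), and with acetaminophen 541 rose (21.3%). For the 1276 higher with gentamicin at 24 h the medians were 0.63 with gentamicin and -0.41 with acetaminophen. Here 845 rose with gentamicin (25.3%) and 651 fell with acetaminophen (21.5%). The 24 h libraries entered the choice of these sets, so the signs follow from it, and the sizes are the description. Here and below, changes between the times within a compound were not tested against those of untreated cultures.

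A smaller group changed sides. For 964 transcripts the compounds differed in opposite directions at 6 h and 24 h. In all 964 the contrast of the 24 h and the 6 h difference was also called. These transcripts were chosen as called at both times with opposite signs. Passing the contrast follows almost wholly from that choice and is no separate support. They are 9% of the 24 h calls and 11.1% of the 6 h calls. In 479 of them acetaminophen was lower at 6 h (median log2 difference -0.61) and higher at 24 h (median 0.67). In the other 485 acetaminophen was higher at 6 h (median 0.53) and lower at 24 h (median -0.69). From 6 h to 24 h the first group fell with gentamicin by a median of -0.8 and the second rose with gentamicin by a median of 0.89; with acetaminophen the medians were 0.62 and -0.41.

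The 4 individual transcripts followed different courses. ENSRNOT00000064772 was already apart at 6 h, at 10.1, 10.7 and 10 TPM with acetaminophen and 1.38, 0.986 and 2.19 TPM with gentamicin (log2 difference 2.93 ± 0.211, SE; edgeR adjusted p = 1.6e-11). ENSRNOT00000050156 was not: its 6 h values were 15333, 14736 and 14861 TPM with acetaminophen and 14982, 17335 and 16914 TPM with gentamicin (log2 difference 0.04 ± 0.113, adjusted p = 0.76), and it fell with gentamicin between the times (log2 change -1.35 ± 0.115, adjusted p = 4.1e-10). The groups of 6 h overlapped for this transcript and for none of the other 3.

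ENSRNOT00000049667 stood at 49.8, 46 and 27.6 TPM with gentamicin and 6.19, 5.29 and 4.68 TPM with acetaminophen at 6 h (log2 difference -2.76 ± 0.182, SE; edgeR adjusted p = 3.5e-12). Its gap widened from both sides: it rose further with gentamicin (log2 change 2.41 ± 0.154, adjusted p = 3.4e-12) and fell with acetaminophen (log2 change -1.61 ± 0.246, adjusted p = 9.3e-06). Untreated controls stood at 2.88 ± 0.459 TPM at 6 h (SD, n = 2) and 2.01 ± 0.1 TPM at 24 h (n = 3). The fall with acetaminophen thus ran from above the control level to near it. ENSRNOT00000031555 stood at 961, 1013 and 737 TPM with gentamicin and 230, 282 and 221.5 TPM with acetaminophen at 6 h (log2 difference -1.71 ± 0.166, adjusted p = 4e-09). Here the gap widened on one side, with a rise under gentamicin (log2 change 3.87 ± 0.178, adjusted p = 1.7e-14) and a log2 change of -0.16 ± 0.164 with acetaminophen (adjusted p = 0.47).

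**Figure D5:**
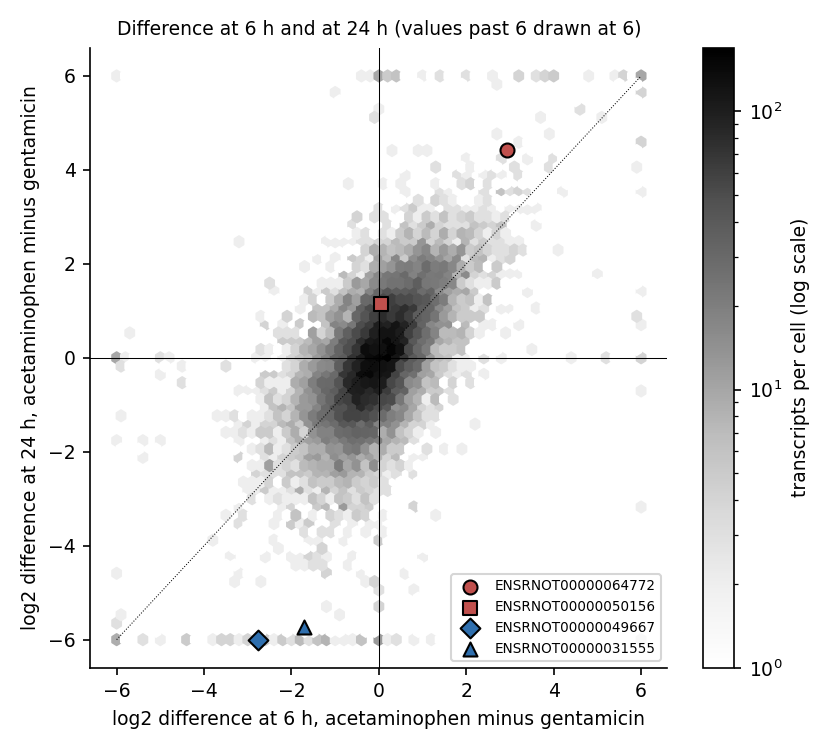
Log2 difference, acetaminophen minus gentamicin, at 24 h (vertical) against 6 h (horizontal) for the 15990 tested transcripts, as counts per hexagon on a log grey scale, with values past 6 drawn at 6 and the dotted line marking equal differences. The 4 symbols are the individual transcripts, chosen on the 24 h difference, which favours a larger distance from 0 at 24 h. ENSRNOT00000050156 lies near 0 on the 6 h axis and the other 3 lie farther from 0 at 24 h than at 6 h.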

How the data were processed

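RNA of the 6 libraries compared, and of the 23 others of the series, was sequenced after TRIzol extraction and DNA removal, per the labels' protocols. The deposited tables hold the authors' estimated counts and TPM per transcript for 28420 transcripts, with transcript length and effective length in bases, per the file headers; kallisto 0.43 is named in the submitters' processing notes. No source used here states the transcript set, the strand setting or any trimming. In the 6 libraries 20.5% of the estimated counts were not whole, and they were rounded.

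Transcripts were kept with filterByExpr (minimum count 10), which left 15990 and 99.9% of all counts, and scaled with TMM. One edgeR 4.0.16 quasi-likelihood model (R 4.3.3, robust) held a coefficient for each of the 10 groups of all 29 libraries, with 19 residual degrees of freedom. Each comparison was a contrast, adjusted by Benjamini-Hochberg over all transcripts. The median SE of a log2 difference was 0.159. SEs are the log2 difference divided by the square root of F. A group with no count was set at 3 counts per library for sizes and bounds. The steps were tested on simulated counts in which a small part of the transcripts was changed. That did not test the scaling where most transcripts differ.

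The 4 identifiers were taken by rule: in each direction, of the called transcripts holding 10 or more counts in all 6 libraries, with TPM groups that did not overlap, the largest log2 difference and the largest difference in mean TPM. The planned gene lists could not be used without names. Of the tested transcripts 167 shared their length and all estimated counts with another identifier. Members, rules and lists were chosen with earlier results of these data known. Alternatives used DESeq2 1.42.0, limma 3.58.1, other scalings, filters, offsets and left-out libraries; the labels give no batch.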

Additional observations from a re-analysis of the deposited data

Results flagged for a closer look

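The difference between acetaminophen and gentamicin was not the same at 24 h as at 6 h for 7263 transcripts, by the edgeR contrast of the 2 differences. The 4 individual transcripts are among them. They were chosen for large differences at 24 h, and the same 24 h libraries enter this contrast. That choice favours a larger difference at 24 h than at 6 h, so their changes are a description and no separate support. For ENSRNOT00000064772 the log2 difference grew by 1.5 ± 0.309 (SE; edgeR adjusted p = 3e-04), higher with acetaminophen in 3 of 3 libraries at both times. For ENSRNOT00000050156 it grew by 1.1 ± 0.16 (adjusted p = 3.8e-06), from groups that overlapped at 6 h to acetaminophen above gentamicin in 3 of 3 libraries at 24 h. On the gentamicin side the change was -4.02 ± 0.286 for ENSRNOT00000049667 (adjusted p = 4.2e-11) and -4.024 ± 0.236 for ENSRNOT00000031555 (adjusted p = 2.2e-12), each higher with gentamicin in 3 of 3 libraries at both times.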

How the results depend on the processing

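No total of called transcripts, over both directions, moved by over 1.5 times under any alternative. Counts within 1 direction did: with library totals 3468 transcripts were higher with gentamicin at 24 h in place of 5412. The difference between the times rose in 3657 and fell in 3606 transcripts with TMM, in 6706 and 1837 with library totals, in 6610 and 1917 on log2(TPM + 1), and in 6461 and 1736 on log2(TPM + 0.1). All 4 individual transcripts kept their direction and passed in all 22 settings each. The count of transcripts separated at 24 h ran from 8716 (filter at 10 CPM) to 11265 (library totals), and DESeq2 gave 10642. Leaving out 1 of the 6 libraries gave 10120 to 10306 of them; the difference between the times gave 6738 to 7102. Log2 differences of ENSRNOT00000064772 ran from 3.87 to 4.86, of ENSRNOT00000050156 from 1.03 (without acetaminophen replicate 3) to 1.59, of ENSRNOT00000049667 from -7.05 to -5.98 and of ENSRNOT00000031555 from -5.87 to -5.3. Summing identical transcripts, an alternative added after seeing the data, gave 10654. What same-numbered replicates share is not stated. Their deviations correlated at 0.03, -0.07 and -0.09, and replicates 1, 2 and 3 did not each correlate best with their own number. With 3 libraries per group, these values cannot tell whether same-numbered replicates share an animal or a day. With the replicate number as a block, 9264 transcripts passed within the 6 libraries and 10620 in the fit of all libraries. The share of calls higher with acetaminophen at 6 h was 48% with TMM and 36.4% on log2(TPM + 1). Against control it was 50.9% for acetaminophen (64.5% with library totals, 61.7% on log2(TPM + 1)) and 48.8% for gentamicin (35.2% and 39.7%). Below 1 TPM in controls 1145 of 2163 transcripts did not pass, and the part of depth in this was not tested.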
